A study of Mus musculus with 18 samples.

Results

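DCs present antigen to T cells together with further surface proteins that raise or restrain the T cell response. Co-stimulatory ligands such as CD80 and CD86, which bind CD28, lower the threshold for T cell activation, whereas co-inhibitory ligands such as PD-L1, which binds PD-1, restrain it. Immature DCs carry little of many of these ligands, and microbial signals such as LPS are known to raise both kinds during maturation. The genes described here encode 10 such ligands, 5 co-stimulatory (*Cd80*, *Cd86*, *Cd40*, *Cd83* and *Icosl*) and 5 co-inhibitory (*Cd274*, *Pdcd1lg2*, *Cd200*, *Pvr* and *Lgals9*). They were found by gene symbol, each in 1 row, among 62197 genes measured by bulk RNA-seq, and all 10 passed the filter on low values that left 17875 genes for testing.

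The cells were DCs grown for 10 days from mouse bone marrow in medium with GM-CSF-containing supernatant from transfected J558 cells. They came from adult male or female mice, either cPLA_2_ WT or cPLA_2_ KO, in which a conditional *Pla2g4a* allele, the gene of cytosolic phospholipase A2 (cPLA_2_), was deleted by *Itgax*-*cre*, so that deletion depends on *Itgax* expression. By the Methods, the animals set against knockouts came from the same litters or were of matching age. In each genotype, DCs were left nonconfined and taken at the end of culture, were confined at 3 µm height and collected 4 h later, or received 100 ng/ml LPS for 30 min, were washed and were left until the next day. The comparisons ask how squeezing of the cell changes immature DCs, whether cPLA_2_ is needed for this, and how the changed state differs from that after LPS. There were 3 libraries in each of the 6 conditions, 18 in all. A figure legend of the study calls the libraries biological replicates, but neither it nor the labels say whether each came from its own mouse, so that p-values measure the spread between these samples, which may be technical. Total gene counts of a library lay between 33027230 and 61300021, at a median of 40950397. Nonconfined libraries held 34689393 to 45020354 counts in cPLA_2_ WT and 36034820 to 45021696 in cPLA_2_ KO, and confined libraries 33592725 to 45769637 and 33027230 to 39400286. LPS libraries held 52116837 to 61300021 counts where labelled cPLA_2_ WT and 39609637 to 45160523 where labelled cPLA_2_ KO. Values below are normalized counts, which are gene counts divided by a size factor for each library.

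The genotype labels were first checked on the targeted gene. *Pla2g4a* was measured at 697, 686 and 770.4 normalized counts in nonconfined cPLA_2_ WT libraries and at 548, 542 and 533 in nonconfined cPLA_2_ KO libraries. After confinement it was at 1369, 1430.3 and 1321 in cPLA_2_ WT and at 923, 871 and 919.5 in cPLA_2_ KO libraries. It was thus lower in all cPLA_2_ KO than in all cPLA_2_ WT libraries of either condition, but far from absent. The counts are per gene, so that reads from exons left by the deletion enter them. The LPS libraries labelled cPLA_2_ WT held 1005, 969 and 967 normalized counts of *Pla2g4a* and those labelled cPLA_2_ KO held 1065, 1032 and 1028, so that here the order was the opposite of the label. The summed level of the Y-linked genes *Ddx3y*, *Eif2s3y*, *Kdm5d* and *Uty* was at most 4.57 in the nonconfined and confined cPLA_2_ WT libraries and at least 1718 in the cPLA_2_ KO libraries, so that genotype and the sex or donor of the mice cannot be told apart. *Xist*, which is transcribed from the inactive X chromosome of female cells, was present in all of them, at 22734 to 33681 normalized counts in these cPLA_2_ WT libraries and 12153 to 24835 in these cPLA_2_ KO libraries. RNA of both sexes was thus found in each of these cPLA_2_ KO libraries, and the labels do not say whether cells of several mice were pooled. In the libraries labelled LPS cPLA_2_ WT this sum was 2329.9, 3.66 and 1271, and in those labelled LPS cPLA_2_ KO it was 4.24, 2589 and 1426. Set against the nonconfined and confined libraries, 3 of the 6 LPS libraries, labelled cPLA_2_ WT 1, cPLA_2_ WT 3 and cPLA_2_ KO 1, go against their labels in these genes, which mark sex and not genotype. The libraries labelled cPLA_2_ WT 3 and cPLA_2_ KO 3, at 1271 and 1426, are both below the lowest cPLA_2_ KO library of the other conditions. *Xist* was at 16450.2 or more in all 6 LPS libraries. Whether LPS libraries were exchanged or hold pooled cells cannot be told apart here, and no direction between genotypes is drawn from the LPS groups. A chi-square per gene between libraries, which is 1 for sampling noise alone, was 3.91 to 16.1 within nonconfined and confined groups, 9.55 to 42.5 between LPS libraries of the same label and 5.08 to 39.2 between LPS libraries of different labels. The closest LPS pairs crossed the labels, with 5.08 for cPLA_2_ WT 2 and cPLA_2_ KO 1 and 6.08 for cPLA_2_ WT 3 and cPLA_2_ KO 3, whereas cPLA_2_ WT 1 and cPLA_2_ WT 2 were at 42.5 and cPLA_2_ KO 1 and cPLA_2_ KO 2 at 34.1. No pair agreed within sampling noise, so that no library was treated as a copy of another, which does not show that the libraries came from separate mice.

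**Figure D1:**
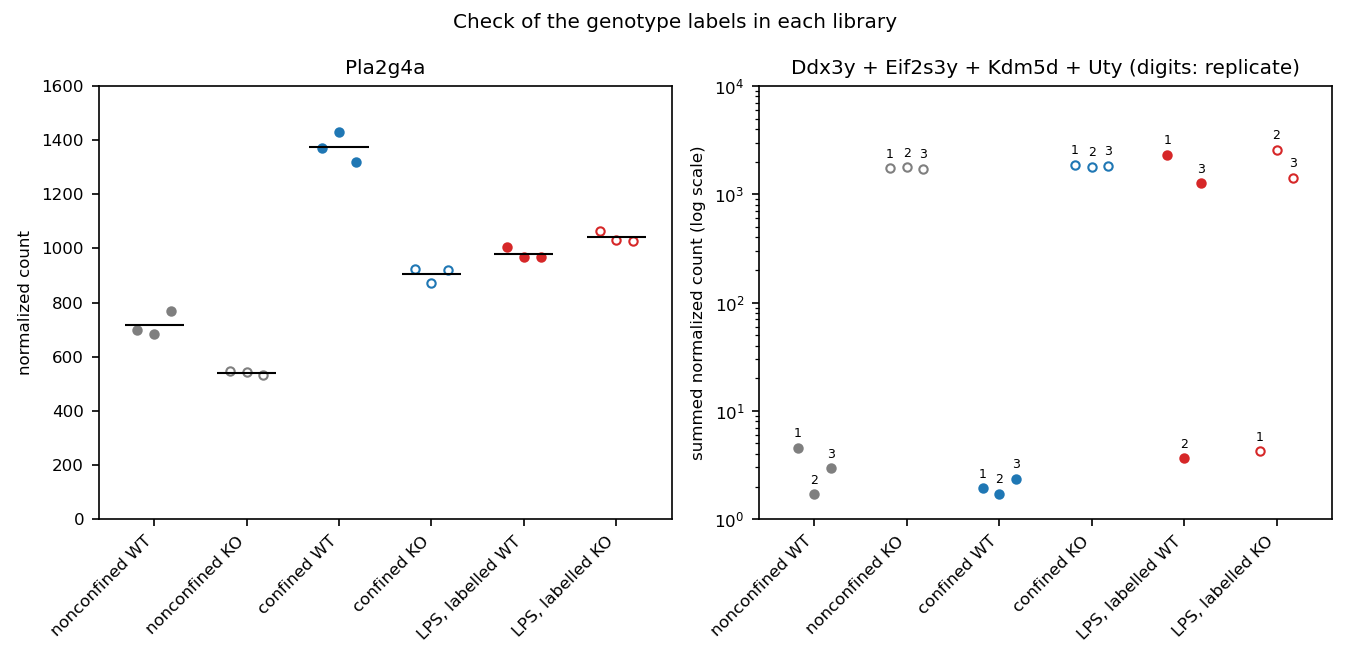
Normalized counts of *Pla2g4a* (left) and the summed normalized counts of 4 Y-linked genes (right) in each of the 18 libraries; digits are replicate numbers. The 3 nonconfined and 3 confined cPLA_2_ KO libraries lie at 1718 or more in the Y-linked sum, whereas the LPS libraries of both labels hold low and high values.

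Markers of DCs were present in every library. The 10 DC genes, led by *Cd74* with a mean of 259102 normalized counts, summed to 455615, 429713 and 435177 in nonconfined cPLA_2_ WT, 535939, 506046 and 524378 in nonconfined cPLA_2_ KO, 418364, 389012 and 401792 in confined cPLA_2_ WT and 369668, 355415 and 368400.0 in confined cPLA_2_ KO libraries. In the LPS libraries they summed to 654470.0, 567602 and 600081 (labelled cPLA_2_ WT) and 572301, 641564 and 616756 (labelled cPLA_2_ KO). By the Methods, granulocytes and macrophages arise in the same culture, and adhesion is used to set DCs apart from them. Genes typical of other myeloid cells were measured in the libraries nonetheless. The 8 neutrophil genes, led by *S100a9* with a mean of 132143, summed to 224517, 229855 and 228077 in nonconfined cPLA_2_ WT, 352511, 316211 and 340875 in nonconfined cPLA_2_ KO, 143575, 137051 and 134704 in confined cPLA_2_ WT and 314453, 328868 and 313125 in confined cPLA_2_ KO libraries. In LPS libraries labelled cPLA_2_ WT and cPLA_2_ KO the same sum was 290341, 270935 and 273128, and 257578, 292845 and 274962. Neutrophil genes were thus lowest in confined cPLA_2_ WT libraries. The 5 eosinophil genes, led by *Prg2* with a mean of 18479, summed to 28264, 27979 and 27902 in nonconfined cPLA_2_ WT, 67854, 63451 and 65406 in nonconfined cPLA_2_ KO, 7625, 7131 and 7056 in confined cPLA_2_ WT and 16471, 15954 and 16902 in confined cPLA_2_ KO libraries. The LPS libraries held 39860.4, 23376 and 31545 (labelled cPLA_2_ WT) and 23170.3, 39434 and 32226 (labelled cPLA_2_ KO). This sum was lower in confined than in nonconfined libraries of both genotypes and higher in cPLA_2_ KO than in cPLA_2_ WT libraries of both conditions, but not each gene followed it. *Ccr3* was higher after confinement in cPLA_2_ WT DCs (log2 fold change 1.14) and lower in confined cPLA_2_ KO than in confined cPLA_2_ WT libraries (−1.65), and *Siglecf* was lower in cPLA_2_ KO libraries, at −0.57 in nonconfined and −0.39 in confined cells. The 6 genes of mast cells and basophils, led by *Cpa3* with a mean of 2855, summed to between 2867 in confined cPLA_2_ WT and 9713 in nonconfined cPLA_2_ KO libraries. The 8 macrophage genes, led by *Csf1r*, summed to between 50313 and 70093, and the 4 genes of plasmacytoid DCs, led by *Bst2*, to between 7264 in confined cPLA_2_ KO and 27944 in LPS libraries. RNA of T and NK cells was scarce, with 101 to 317 normalized counts for the 6 of 7 genes that were found, led by *Cd3d*. No marker of these lists was at 0 in all libraries, and *Ncr1* was under 10 in all of them. In bulk samples, fewer cells of a type and less RNA per cell cannot be told apart. The part of these other cells in the changes described below was not tested.

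The 10 genes lie on 7 chromosomes of GRCm39, with coordinates as the deposited table gives them. The B7 family genes *Cd80* (GSMG0020873, chr16:38275922-38316699, plus strand, 5 exons in the canonical transcript) and *Cd86* (GSMG0021674, chr16:36424231-36486444, minus strand, 8 exons) are 1789477 bases apart. *Cd274* (GSMG0027589, chr19:29344838-29365496, plus strand, 7 exons) and *Pdcd1lg2* (GSMG0027590, chr19:29388316-29450328, plus strand, 6 exons), which encode the PD-1 ligands PD-L1 and PD-L2, are neighbours 22819 bases apart, with 0 annotated genes wholly between them. *Cd200* (GSMG0021729, chr16:45202496-45229416, minus strand, 6 exons) lies on the same chromosome as *Cd80* and *Cd86*. *Cd40* (GSMG0031240, chr2:164897545-164914868, plus strand, 9 exons), *Cd83* (GSMG0013270, chr13:43938588-43956609, plus strand, 5 exons) and *Icosl* (GSMG0003995, chr10:77905191-77915359, plus strand, 7 exons) each lie alone. *Pvr* (GSMG0050597, chr7:19637504-19655068, minus strand, 8 exons) and *Lgals9* (GSMG0009653, chr11:78853805-78875750, minus strand, 10 exons) also lie alone. Other annotated genes overlap *Cd80*, *Cd274*, *Pdcd1lg2* and *Pvr*, mostly on the opposite strand. The kit keeps strand but whether the counting used it is not stated, so that the levels of these 4 genes carry that uncertainty.

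Levels can be compared between genes once divided by the length of their exons. In nonconfined cPLA_2_ WT DCs, *Lgals9*, the gene of galectin-9, stood highest at 2219.5 ± 48.1 normalized counts per kb of exon (SD, n = 3), followed by the maturation marker *Cd83* at 1992 ± 57.6. *Cd86*, *Cd274*, *Cd80*, *Pdcd1lg2* and *Icosl* came next at 819, 719, 555, 339 and 236 normalized counts per kb. *Pvr* at 140 ± 7.65 and *Cd40* at 133 ± 10.8 did not differ beyond their spread, and *Cd200* was lowest at 19.4. Confinement reordered the ligands in cPLA_2_ WT DCs, where *Cd83* led at 10224 normalized counts per kb, ahead of *Cd274* at 3204, *Lgals9* at 2722, *Cd86* at 2145 ± 23.8 and *Cd80* at 2121 ± 13.7, the last pair within their spread. *Cd40* reached 1444 normalized counts per kb there and passed *Pdcd1lg2*, *Pvr* and *Icosl* at 565, 434 and 327. In confined cPLA_2_ KO DCs *Cd83* and *Lgals9* led at 2465 and 1637 normalized counts per kb, and *Cd40* stayed second from last at 139. In the LPS libraries labelled cPLA_2_ WT, *Cd83* at 11669 was followed by *Cd40* at 8186 normalized counts per kb. *Cd200* was the lowest of the 10 ligands in all 6 conditions. These orders use the union of a gene's exons, and some neighbours change places when the longest transcript is used. *Lgals9* at 3782 then stood above *Cd274* at 3312 in confined cPLA_2_ WT DCs, with *Pvr* at 913 above *Pdcd1lg2* at 626, and *Icosl* at 387 above *Pdcd1lg2* at 375 in nonconfined cPLA_2_ WT DCs. In confined cPLA_2_ KO DCs *Cd86* then passed *Cd274*, and *Pvr* passed *Icosl*. Both pairs that were within their spread moved apart with this length. *Pvr* was then at 294 and *Cd40* at 151 in nonconfined cPLA_2_ WT DCs, and *Cd86* at 3028 and *Cd80* at 2761 in confined cPLA_2_ WT DCs.

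Confinement at a height of 3 µm raised all 10 ligands in cPLA_2_ WT DCs, against 28.2% of the 17875 genes tested that were higher and 28.4% that were lower (limma, adjusted p under 0.05). For 7 of the 10 the log2 fold change was above 1, as it was for 11.4% of all genes, and the exceptions were *Icosl*, *Pdcd1lg2* and *Lgals9*. The median log2 fold change was 1.79 over the ligands and −0.0055 over all genes tested. For each ligand the 3 confined libraries were above the 3 nonconfined libraries with no overlap. The share of all genes separated in this way was not counted. In the same comparison 7 of 8 neutrophil genes were lower and 0 higher (median −0.85). Of 5 eosinophil genes 3 were lower and 1 higher (−2.13), and of 6 genes of mast cells and basophils 4 and 1 (−1.51). Of 5 tested genes of T and NK cells 4 were lower and 0 higher (−1.30). The part of these cell types was not tested.

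Among the co-stimulatory ligands, *Cd40*, a TNF receptor family member through which T helper cells license DCs, moved most. It was measured at 482, 462 and 411 normalized counts in nonconfined and at 4930.1, 4801 and 5040.1 in confined cPLA_2_ WT libraries. All confined libraries were about an order of magnitude above all nonconfined ones, with a fold change of 10.9 and a log2 fold change of 3.45 ± 0.057 (SE; limma, adjusted p = 1.62e-21). *Cd83*, which stabilizes MHC class II and CD86 at the DC surface, was at 5959, 6277 and 5988 normalized counts in nonconfined and 32589.6, 30371 and 30587 in confined cPLA_2_ WT libraries. The groups were far apart relative to their spread, and the log2 fold change was 2.36 ± 0.041 (limma, adjusted p = 3.11e-21). *Cd80* rose from 2199.8, 2338 and 2336 to 8800.1, 8789 and 8697 normalized counts. *Cd86* rose from 3097, 3193 and 3163 to 8168, 8350.4 and 8241. Both CD28 ligands were high in each confined cPLA_2_ WT library, with log2 fold changes of 1.94 ± 0.069 for *Cd80* and 1.39 ± 0.042 for *Cd86* (limma, adjusted p = 7.86e-16 and 4.86e-17). *Icosl*, whose product binds ICOS on activated T cells, changed less, from 1096, 1032 and 1139.9 to 1497, 1471 and 1567 normalized counts. Its confined libraries were higher by 0.47 ± 0.085 on the log2 scale (limma, adjusted p = 6.09e-05), and by 0.25 (adjusted p = 0.0111) with the same total in each library.

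The co-inhibitory ligands rose in the same libraries. *Cd274* was at 3039, 2858 and 2909 normalized counts in nonconfined and 13065, 12858 and 13301 in confined cPLA_2_ WT libraries. This separation gave a log2 fold change of 2.16 ± 0.059 (limma, adjusted p = 7.17e-18), the largest of the co-inhibitory ligands. *Pdcd1lg2*, its neighbour on the chromosome, went from 821, 734 and 765 to 1326, 1338 and 1203 normalized counts. All confined libraries were higher, but by only 0.74 ± 0.081 on the log2 scale (limma, adjusted p = 8.74e-08). *Cd200*, whose product restrains myeloid cells and T cells through CD200R, was scarce at 56.4, 95.5 and 84.5 normalized counts and reached 264, 316 and 319.8. *Pvr* (CD155), a ligand of both inhibitory TIGIT and activating CD226, went from 918, 823 and 869.7 to 2587, 2711 and 2813. Both were high in each confined cPLA_2_ WT library, with log2 fold changes of 1.94 ± 0.18 for *Cd200* and 1.63 ± 0.061 for *Pvr* (limma, adjusted p = 5.45e-09 and 1.87e-15). *Lgals9*, whose product binds the receptor TIM-3, moved least, from 5115, 5086 and 4913 to 6551, 5846 and 6143. Its log2 fold change of 0.29 ± 0.054 (limma, adjusted p = 8.36e-05) became 0.068 (adjusted p = 0.315) when all libraries were scaled to the same total.

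**Figure D2:**
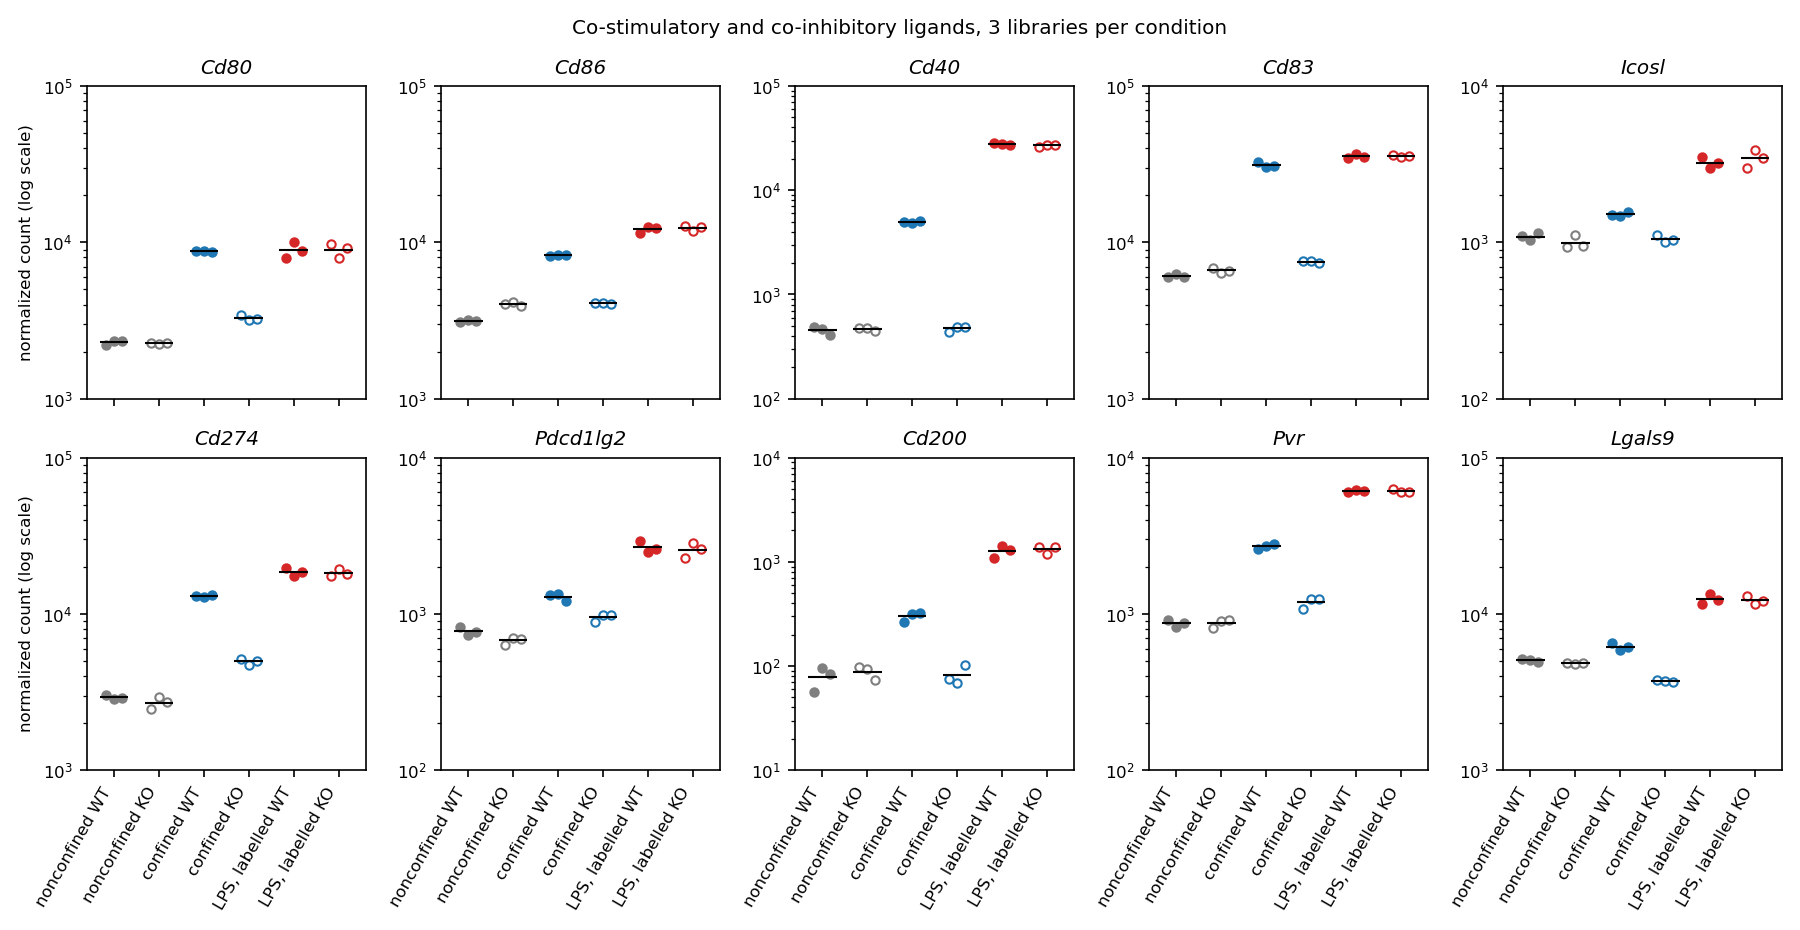
Normalized counts (log axis) of the 10 ligand genes in the 18 libraries, 1 panel for each gene. Points are libraries, filled for cPLA_2_ WT and open for cPLA_2_ KO labels, and lines are means of 3. *Cd40* in confined cells lies near 4924 in cPLA_2_ WT and near 473 in cPLA_2_ KO DCs, the latter level with nonconfined cells.

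Confinement moved the ligands much less in cPLA_2_ KO DCs. Here 5 of the 10 were higher, against 22.8% of all genes tested, and 1 was lower, against 23.4% (limma, adjusted p under 0.05). None of the 10 moved by more than 1 on the log2 scale, and the median log2 fold change was 0.14 over the ligands and 0.010 over all genes. *Cd40* was at 473, 473 and 444 normalized counts in nonconfined and 440.2, 493 and 485 in confined cPLA_2_ KO libraries. These groups overlapped, and the difference of 0.027 ± 0.057 on the log2 scale did not pass the test (limma, adjusted p = 0.735). *Cd86* likewise overlapped between nonconfined (4027, 4172 and 3909) and confined (4115, 4077 and 4053) cPLA_2_ KO libraries, with a log2 fold change of 0.017 ± 0.042 (limma, adjusted p = 0.777). The sign of these differences for *Cd40* and *Cd86* turned under TMM scaling (−0.016 and −0.026) and with the same total in each library (−0.0094 and −0.019). *Icosl* and *Cd200* also overlapped and did not pass the test, at log2 fold changes of 0.088 and −0.11 (limma, adjusted p = 0.424 and 0.635). All 10 DC genes were lower with confinement in cPLA_2_ KO DCs, with a median log2 fold change of −0.68, whereas 7 were lower and 2 higher in cPLA_2_ WT DCs, with a median of −0.29. Their part in the smaller changes of the ligands was not tested.

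*Cd274* kept the largest increase in cPLA_2_ KO DCs. It was at 2466, 2934 and 2733 normalized counts in nonconfined and 5166, 4714 and 5017 in confined cPLA_2_ KO libraries. The confined libraries were all higher, with a log2 fold change of 0.88 ± 0.059 (limma, adjusted p = 8.72e-11). *Cd80* moved from 2283, 2232 and 2254 to 3408, 3169 and 3255 normalized counts, a log2 fold change of 0.54 ± 0.069 (limma, adjusted p = 1.6e-06). *Pdcd1lg2*, *Pvr* and *Cd83* rose in all 3 libraries by 0.49, 0.44 and 0.19 on the log2 scale (limma, adjusted p = 3.46e-05, 4.3e-06 and 0.000751). Only *Lgals9* fell, from 4855, 4748 and 4871 to 3778, 3722 and 3647 normalized counts. Every confined cPLA_2_ KO library was below every nonconfined one for this gene, with a log2 fold change of −0.38 ± 0.054 (limma, adjusted p = 6.73e-06), opposite to its direction in cPLA_2_ WT DCs. That increase in cPLA_2_ WT DCs did not pass the test with the same total in each library (0.068, limma, adjusted p = 0.315).

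The difference between the genotypes in the response to confinement was tested directly as an interaction, the change in cPLA_2_ KO minus the change in cPLA_2_ WT DCs. It was below 0 for 9 of the 10 ligands, against 15.6% of all genes below and 10.2% above (limma, adjusted p under 0.05), and below −1 for 7, against 6.56% of all genes. The median was −1.33 over the ligands and 0.051 over all genes. *Cd40* stood furthest out at −3.42 ± 0.081, followed by *Cd83* at −2.17 ± 0.058 and *Cd200* at −2.06 ± 0.25 (limma, adjusted p = 3.33e-18, 1.59e-17 and 1.6e-06). *Cd80*, *Cd86*, *Cd274* and *Pvr* lay between −1.40 and −1.19, and *Lgals9* at −0.67. *Pdcd1lg2* was the exception at −0.24 ± 0.11 (limma, adjusted p = 0.131), so that the increases of this gene in the 2 genotypes were not shown to differ. *Icosl* passed the test at −0.39 ± 0.12 (limma, adjusted p = 0.021) but not without cPLA_2_ WT nonconfined library 2 (−0.35, adjusted p = 0.0586), cPLA_2_ KO nonconfined library 2 (−0.30, 0.0623), cPLA_2_ WT confined library 3 (−0.36, 0.0522) or cPLA_2_ KO confined library 2 (−0.35, 0.0533). The same total in each library moved it further, to −0.20 (adjusted p = 0.187). In the same interaction 7 of the 10 DC genes were below 0 and 0 above, at a median of −0.42, and 7 of the 8 neutrophil genes were above 0 and 0 below, at a median of 0.69, and their part was not tested.

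In confined cells, all 10 ligands were lower in cPLA_2_ KO DCs than in their cPLA_2_ WT counterparts, against 20.6% of all genes, and 7 were lower by more than 1 on the log2 scale, against 7.31% (limma, adjusted p under 0.05). With the same total in each library, *Cd86* was at −0.86 and no longer past 1. The groups overlapped for none of the 10, and the share of all genes without overlap was not counted. *Cd40* was 10.4-fold lower, with a log2 fold change of −3.38 ± 0.057 (limma, adjusted p = 3.47e-21). *Cd83* and *Cd200* were lower by 2.05 and 1.88, and *Cd80*, *Cd274*, *Pvr* and *Cd86* had log2 fold changes of −1.42, −1.40, −1.18 and −1.02. Smaller differences were found for *Lgals9* at −0.73, *Icosl* at −0.52 and *Pdcd1lg2* at −0.43. All 8 neutrophil genes were higher in the same comparison, against 18.8% of all genes, with a median log2 fold change of 1.33. Of 6 genes of mast cells and basophils 5 were higher and 0 lower (0.94), and of 5 eosinophil genes 3 and 2 (1.27). Of the 10 DC genes 4 were lower and 0 higher (−0.15), and of 4 plasmacytoid DC genes 2 and 0 (−0.19). The part of these cell types in the difference was not tested.

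Before confinement the genotypes differed little in these genes. Of the 10 ligands 1 was higher in nonconfined cPLA_2_ KO DCs than in cPLA_2_ WT controls and 0 were lower, against 4.78% and 4.11% of all genes (limma, adjusted p under 0.05). That gene was *Cd86*, at 3097, 3193 and 3163 normalized counts in cPLA_2_ WT and 4027, 4172 and 3909 in cPLA_2_ KO libraries. All cPLA_2_ KO libraries were higher, with a log2 fold change of 0.36 ± 0.042 (limma, adjusted p = 1.78e-05). *Cd83* was also higher in each cPLA_2_ KO library, by 0.12 ± 0.041 on the log2 scale, but missed the threshold (limma, adjusted p = 0.0708). The other 8 ligands had log2 fold changes between −0.19 and 0.18, and the groups overlapped for *Cd80*, *Cd40*, *Icosl*, *Cd274*, *Cd200* and *Pvr*. The level of *Cd86* in confined cPLA_2_ KO DCs (4082 ± 31.7, SD, n = 3) was therefore about that of nonconfined cPLA_2_ KO DCs (4036 ± 132) and above that of nonconfined cPLA_2_ WT DCs (3151 ± 49.1). Between nonconfined genotypes, 6 of 8 neutrophil genes were higher in cPLA_2_ KO libraries and 0 lower (median 0.50). Of 5 eosinophil genes 4 were higher and 1 lower (1.33), and of 6 genes of mast cells and basophils 3 and 0 (0.54). Of the 10 DC genes 3 were higher and 2 lower, and the part of these cell types was not tested.

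**Figure D3:**
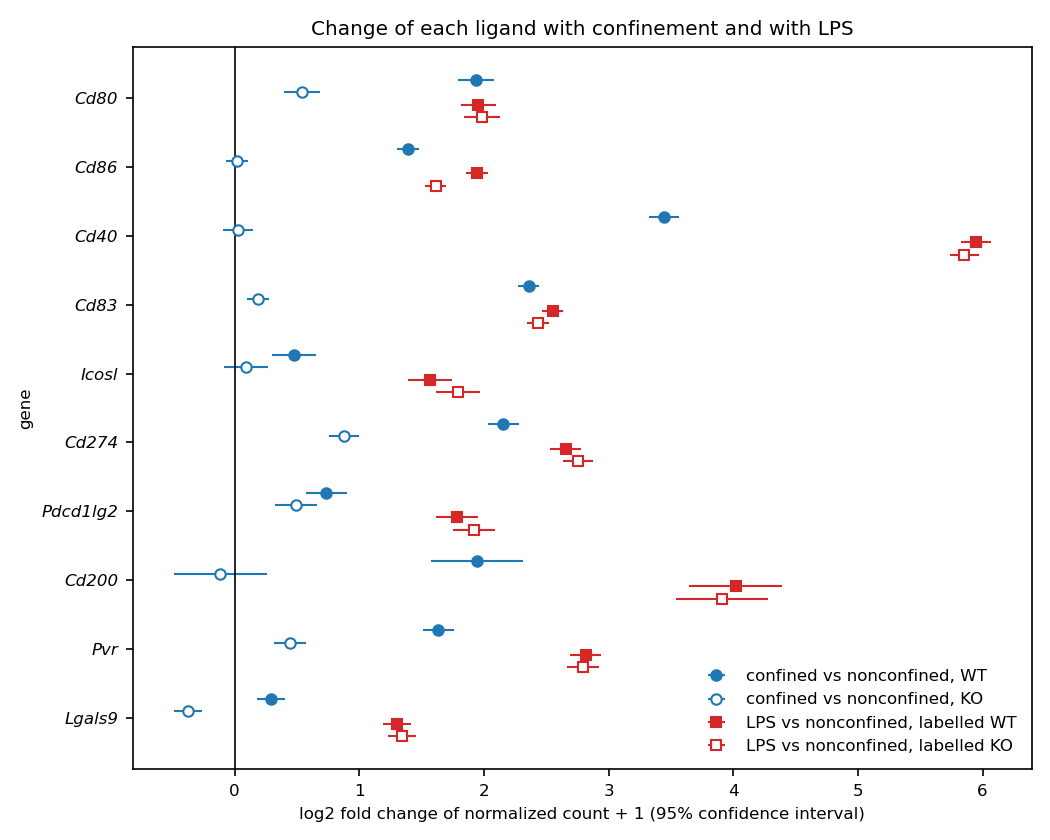
Log2 fold changes with 95% confidence intervals of the 10 ligand genes for confinement of DCs of either genotype and for LPS in libraries labelled cPLA_2_ WT and cPLA_2_ KO, each against nonconfined cells of the same label. *Cd40* changed by 3.45 with confinement in cPLA_2_ WT, 0.027 in cPLA_2_ KO, and by 5.95 and 5.85 with LPS.

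LPS raised all 10 ligands by more than 1 on the log2 scale, whichever label the libraries carried, except that *Lgals9* was at 0.79 and 0.86 under the labels cPLA_2_ WT and cPLA_2_ KO with the same total in each library. In libraries labelled cPLA_2_ WT, 33.4% of all genes were higher and 29.4% lower, and 15.0% were higher by more than 1 (limma, adjusted p under 0.05). In those labelled cPLA_2_ KO, the corresponding shares of higher genes were 33.4% and 15.0%, and 30.1% of all genes were lower. The median log2 fold change of the ligands was 2.25 and 2.21 under the labels cPLA_2_ WT and cPLA_2_ KO, against 0.031 and 0.024 over all genes. Of the 10 DC genes 9 and 7 were higher under these labels, with medians of 0.40 and 0.39, and of the 4 plasmacytoid DC genes 3 and 3, with medians of 1.66 and 1.71. *Siglech*, of the plasmacytoid DC genes, was lower under both labels, at −2.89 and −2.32. Neutrophil genes had medians of 0.093 and −0.69, and macrophage genes of −0.17 and −0.58. Genes of mast cells and basophils had −0.19 and −0.80, with 2 and 6 of 6 lower and 0 higher under either label. Eosinophil genes had 0.16 and −1.13, with 1 and 4 of 5 lower and 0 higher. The part of these cell types was not tested. Without the 3 libraries that go against their labels, which leaves 1 labelled cPLA_2_ WT that is assumed to vary like the other groups, the log2 fold changes of all 10 were still above 1. Because of these libraries, the labels were also pooled, 6 LPS against 6 nonconfined libraries.

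*Cd40* responded most to LPS as well. It was at 28428, 28002 and 27294 normalized counts in the LPS libraries labelled cPLA_2_ WT and at 25947, 27305 and 27338 in those labelled cPLA_2_ KO. All 6 LPS libraries were far above the nonconfined ones, 59.8-fold with labels pooled, a log2 fold change of 5.90 ± 0.041 (limma, adjusted p = 4.7e-29). *Cd200* ranked next at 1094, 1421 and 1294 normalized counts (labelled cPLA_2_ WT) and 1397, 1198 and 1392 (labelled cPLA_2_ KO). It was higher in all 6 LPS libraries, with a pooled log2 fold change of 3.96. The pooled log2 fold changes of *Pvr* and *Cd83* were 2.81 and 2.49 with *Cd274* between them, those of *Cd80*, *Pdcd1lg2*, *Cd86* and *Icosl* were 1.97, 1.85, 1.78 and 1.68, and that of *Lgals9* was 1.32.

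Between the labels within LPS, 0 of the 10 ligands and 0 of all genes tested were called by limma (0%). At an unadjusted p under 0.05, limma gave 890 genes (4.98%), edgeR 812 (4.54%) and DESeq2 831 (4.65%), with 0 of the 10 ligands among them, and edgeR and DESeq2 also called 0 genes after adjustment. The ligands' log2 fold changes between labels were −0.056 to 0.088 in limma and the libraries of both labels overlapped for all 10. The interaction of LPS and label was below 0 for 1 ligand, *Cd86*, and above 0 for none, against 0.962% of all genes below and 0.313% above (limma, adjusted p under 0.05). Its value of −0.33 ± 0.060 (limma, adjusted p = 0.00493) was −0.41 (adjusted p = 0.00532) without the 3 libraries that go against their labels. *Cd86* was at 12117 ± 599 and 12333 ± 406 normalized counts (SD, n = 3) in LPS libraries labelled cPLA_2_ WT and cPLA_2_ KO, whereas its nonconfined level was higher in cPLA_2_ KO than in cPLA_2_ WT libraries. In the same interaction 5 of 8 neutrophil genes were below 0 and 0 above (median −0.53). Of 5 eosinophil genes 4 were below and 1 above 0 (−1.35), and of 6 genes of mast cells and basophils 2 and 0 (−0.63). The part of these cell types was not tested.

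Confined DCs were then set against LPS-treated DCs, which differ also in time, 4 h against the next day. In cPLA_2_ WT DCs 9 of the 10 ligands were lower after confinement than in the LPS libraries labelled cPLA_2_ WT, against 27.2% of all genes lower and 21.6% higher, and 6 were lower by more than 1 on the log2 scale, against 7.51% (limma, adjusted p under 0.05), with *Cd83* higher once each library was scaled to the same total. Under that scaling *Icosl*, *Pdcd1lg2*, *Pvr* and *Lgals9* were not past 1, at −0.81, −0.76, −0.89 and −0.72. Without the 3 libraries that go against their labels, *Icosl* and *Pdcd1lg2* were at −0.97 and −0.94, and with all 6 LPS libraries *Lgals9* fell just short of 1. Of the 10 DC genes 9 were lower as well, with a median log2 fold change of −0.62, as were 7 of 8 neutrophil genes (−1.15), 3 of 4 plasmacytoid DC genes (−1.17), 4 of 6 genes of mast cells and basophils (−1.46) and 3 of 5 eosinophil genes (−2.28). Called higher in these lists were *Cxcr2* of neutrophils (0.22), *Kit* of mast cells (0.42), and *Ccr3* (0.79) and *Siglecf* (0.62) of eosinophils. The median of the ligands was −1.03, and the part of these cell types was not tested. *Cd80* did not pass the test, with 8800.1, 8789 and 8697 normalized counts in confined and 7969, 10003 and 8807 in LPS libraries. Its libraries overlapped, and the log2 difference was −0.021 ± 0.069 with a 95% interval of −0.16 to 0.12 (limma, adjusted p = 0.829). With all 6 LPS libraries the difference was −0.024 (adjusted p = 0.749), without the 3 libraries that go against their labels −0.19 (adjusted p = 0.0338), and with the same total in each library 0.27 (adjusted p = 0.00505), over a range of adjusted p from 0.00505 to 0.993 among the alternatives.

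The share of the LPS level reached by confinement differed widely among the ligands. Confined cPLA_2_ WT libraries held 98.2% of the mean of the LPS libraries labelled cPLA_2_ WT for *Cd80*, 87.6% for *Cd83*, 70.7% for *Cd274* and 68.1% for *Cd86*. *Lgals9*, *Pdcd1lg2*, *Icosl* and *Pvr* reached 49.5%, 48.3%, 46.7% and 44.2%. *Cd200* and *Cd40* were far from the LPS level at 23.6% and 17.6%. These shares depend on the scaling, since normalized totals had a mean of 39890270.0 in confined cPLA_2_ WT and 48718670.0 in these LPS libraries. With the same total in each library, the log2 difference went from −0.50 to −0.21 for *Cd274* and from −0.55 to −0.26 for *Cd86*. *Cd40*, which had the largest fold change in either comparison, was thus also the ligand furthest from its LPS level, with a log2 difference of −2.50 ± 0.057 (limma, adjusted p = 2.91e-18). *Cd83* was close, at −0.19 ± 0.041 (limma, adjusted p = 0.000529), with 0.097 (adjusted p = 0.0475) when libraries were scaled to the same total. In cPLA_2_ KO DCs all 10 were lower after confinement than in the LPS libraries labelled cPLA_2_ KO, each by more than 1 on the log2 scale, against 30.6% and 12.6% of all genes (limma, adjusted p under 0.05), except that *Pdcd1lg2* was at −0.98 with the same total in each library. The median difference was −1.80, and the levels ran from 37.0% of the LPS level for *Pdcd1lg2* and 36.6% for *Cd80* down to 6.16% for *Cd200* and 1.76% for *Cd40*. All 10 DC genes were lower in this comparison too, with a median of −1.12, as were 3 of 4 plasmacytoid DC genes (−1.88) and 4 of 5 eosinophil genes (−0.79). Of 8 neutrophil genes 4 were higher, against 28.1% of all genes, and 1 lower (0.20). The part of these cell types was not tested.

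Across the 18 libraries, which share treatments and size factors, the ligands varied together. Pearson correlations of log2(normalized count + 1) over the 45 pairs had a median of 0.958, and 37 pairs (82.2%) were above 0.9, against 3.86% of the pairs among 10554 genes with a mean level of 100 normalized counts or more. Among the 1348 of these that LPS raised by more than 1 on the log2 scale under both labels, 40.7% of the pairs were above 0.9, with a median of 0.873. Spearman correlations were lower, at a median of 0.831 for the ligands and 0.771 for the genes raised by LPS, with 9 of the 45 ligand pairs above 0.9, against 16.5% of the pairs among those genes. Pearson correlations of the ligands ran from 0.792 for *Cd80* and *Lgals9* to 0.992 for *Cd40* and *Pvr*. The CD28 ligands *Cd80* and *Cd86* reached 0.957 and the PD-1 ligands *Cd274* and *Pdcd1lg2* 0.946. Each ligand was also set against the other 10553 genes of that level. The closest genes were *Icam1* (an adhesion molecule, 0.999) for *Cd40*, *Cxcl10* (a chemokine, 0.999) for *Cd83*, *Ripk2* (a kinase of NOD signalling, 0.998) for *Cd80*, *Hcar2* (0.995) for *Cd86* and *Cybb* (a subunit of the phagocyte NADPH oxidase, 0.994) for *Icosl*. Among the co-inhibitory ligands they were *Tmem184b* (0.998, followed by *Nfe2l1*) for *Cd274*, *Nrp2* (0.994) for *Pdcd1lg2*, *Serpinb9* (a granzyme B inhibitor, 0.994) for *Cd200*, *Crtc2* (a coactivator of CREB, 0.997) for *Pvr* and *Zbp1* (a nucleic acid sensor, 0.997) for *Lgals9*. *Lgals9* was followed by *Ube2l6* and *Samhd1*, which like *Zbp1* are known as interferon-inducible genes. *Il12b*, a subunit of IL-12, was among the top 3 for *Cd86*, as were *Ebi3*, a subunit of IL-27, and *Bcl2a1b* for *Cd40*. The *Bcl2a1* genes are near-identical copies, and their counts are uncertain.

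Because the ligands moved together, their promoters were searched for motifs of factors known to act in maturing DCs. Of the 10, 6 had an entry in the RefSeq promoter table of GRCm38.p6, whose 300 bases were matched exactly to GRCm39 for the coordinates given here. The motifs, searched on both strands, were GAAA and again GAAA after any 2 bases, as bound by interferon regulatory factors, TTCNNNGAA of STAT proteins, and the κB consensus. They were found in 3.44%, 8.3% and 4.51% of 32851 promoters, and in 1, 0 and 1 of the 6 ligand promoters. The promoter of *Lgals9* (chr11:78875701-78876000, minus strand of GRCm39) held 2 matches to the first motif, and that of *Pdcd1lg2* (chr19:29388069-29388368, plus strand) held 1 to κB, 244 bases before the start. They are shown with that of *Cd274* (chr19:29344588-29344887, plus strand), the neighbour of *Pdcd1lg2*, which held none. Sequences run 5′ to 3′ from 250 bases before to 50 after the start, with matches in capitals.
Lgals9 promoter: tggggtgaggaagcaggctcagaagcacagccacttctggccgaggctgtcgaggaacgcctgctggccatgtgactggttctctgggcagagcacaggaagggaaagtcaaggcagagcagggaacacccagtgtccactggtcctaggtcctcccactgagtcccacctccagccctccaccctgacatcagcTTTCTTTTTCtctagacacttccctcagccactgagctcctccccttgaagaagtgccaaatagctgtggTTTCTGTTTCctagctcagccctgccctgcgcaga
Pdcd1lg2 promoter: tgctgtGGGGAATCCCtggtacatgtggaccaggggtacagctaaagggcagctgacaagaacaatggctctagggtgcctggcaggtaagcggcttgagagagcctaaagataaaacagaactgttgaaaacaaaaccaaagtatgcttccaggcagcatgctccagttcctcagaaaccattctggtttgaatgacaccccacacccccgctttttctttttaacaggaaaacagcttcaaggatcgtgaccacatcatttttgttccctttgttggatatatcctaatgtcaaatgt
Cd274 promoter: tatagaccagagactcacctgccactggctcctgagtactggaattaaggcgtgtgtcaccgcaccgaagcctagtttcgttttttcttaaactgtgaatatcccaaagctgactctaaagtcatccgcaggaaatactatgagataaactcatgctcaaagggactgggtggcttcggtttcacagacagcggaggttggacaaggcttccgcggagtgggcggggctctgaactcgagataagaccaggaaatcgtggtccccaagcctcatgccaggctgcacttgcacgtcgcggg
A match is a run of letters and not a measured binding site, and a window without one says nothing about the factor.

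Other ligands that act on T cells moved in both directions. Of 20 further co-signalling ligands 17 were tested, and with confinement of cPLA_2_ WT DCs 10 were higher, 5 lower and 2 not called (limma, adjusted p under 0.05), with a median log2 fold change of 0.94. Over all genes, 28.2% were higher and 28.4% lower in this comparison. *Tnfsf15* (TL1A) led by far, at 222 ± 9.74 normalized counts in nonconfined and 8738 ± 154 in confined cPLA_2_ WT DCs (SD, n = 3), a log2 fold change of 5.29. *Tnfsf9* (4-1BB ligand) rose from 653 ± 45.4 to 5099 ± 85.5, a log2 fold change of 2.97, and *Vsir* (VISTA) and *Cd24a* were lower by 1.40 and 1.24. *Nectin3* at 2.14 and *Btn2a2* at −2.57 passed as well, but with means of at most 12.1 normalized counts in any condition. In cPLA_2_ KO DCs 2 were higher and 8 lower, against 22.8% and 23.4% of all genes, and *Tnfsf15* was at 268 ± 29.7 after confinement. The interaction was below 0 for 7, against 15.6% of all genes, led by *Tnfsf15* at −4.84, *Tnfsf9* at −3.41 and *Cd70* (the CD27 ligand) at −3.05, and above 0 for 3, against 10.2%, *Ceacam1*, *Vsir* and *Lgals3*, at 0.84, 0.84 and 0.24. LPS libraries labelled cPLA_2_ WT had 10 of the 17 higher and 4 lower, against 33.4% and 29.4% of all genes, with *Tnfsf15* at 54714 ± 2409 normalized counts. Set against these, confined cPLA_2_ WT DCs had 2 higher and 9 lower, against 21.6% and 27.2%. *Tnfsf9* was at 4548 ± 12 in LPS libraries labelled cPLA_2_ WT, near its level in confined cPLA_2_ WT DCs, whereas *Tnfsf15* was far above its own.

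Receptors of these ligands are mostly known from lymphocytes, and 9 of 12 were tested. With confinement of cPLA_2_ WT DCs 4 were higher, 1 lower and 4 not called, against 28.2% of all genes higher and 28.4% lower. In cPLA_2_ KO DCs 4 were higher and 3 lower, against 22.8% and 23.4%, and the interaction was above 0 for 1 and below 0 for 3, against 10.2% and 15.6%. *Pdcd1*, the gene of PD-1, was at 7.27 ± 2.46 normalized counts in nonconfined and 243 ± 24.0 in confined cPLA_2_ WT DCs, but only at 28.6 ± 3.19 in LPS libraries labelled cPLA_2_ WT (SD, n = 3). Its log2 fold change was 4.93 ± 0.31 with confinement and 3.04 ± 0.31 for confined cPLA_2_ WT DCs against LPS libraries labelled cPLA_2_ WT (limma, adjusted p = 1.08e-11 and 4.04e-08), so that this receptor was highest in confined cPLA_2_ WT DCs, unlike its ligands *Cd274* and *Pdcd1lg2*. In cPLA_2_ KO DCs *Pdcd1* was at 13.3 ± 4.04 before and 18.8 ± 1.99 after confinement, and the interaction was −4.42 ± 0.44 (limma, adjusted p = 6.45e-08). *Havcr2*, the gene of the *Lgals9* receptor TIM-3, rose in both genotypes, from 136 ± 5.57 to 1548 ± 66.7 in cPLA_2_ WT and from 202 ± 40.9 to 1225 ± 40.9 in cPLA_2_ KO DCs. The log2 fold changes of *Havcr2* were 3.50 and 2.61, with an interaction of −0.88 (limma, adjusted p = 0.000345). The gene of the CD200 receptor, *Cd200r1*, was the 1 with an interaction above 0, at 0.64 ± 0.074 (limma, adjusted p = 7.26e-07), and was lower in LPS libraries labelled cPLA_2_ WT by a log2 fold change of −1.89. *Tigit*, a receptor of *Pvr*, was higher after confinement in both genotypes. Its log2 fold change had a wide error, at 1.94 ± 0.44 for cPLA_2_ WT and 3.19 ± 0.44 for cPLA_2_ KO (SE), and its interaction did not pass the test. Markers of T and NK cells summed to 125 or less in the confined cPLA_2_ WT libraries, below nonconfined libraries of either genotype. Which cells the RNA of these receptors came from was not tested.

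Genes known to act on such ligands as proteins mostly moved little with confinement. Of 8 such genes in cPLA_2_ WT DCs 3 were higher and 4 lower, with a median log2 fold change of −0.14, and *Cd5* changed most at −1.03 ± 0.36. Over all genes, 28.2% were higher and 28.4% lower. *Adam17*, a sheddase, was higher by 0.61 and *Cmtm6*, which protects PD-L1 from degradation, lower by 0.19 on the log2 scale. In cPLA_2_ KO DCs 4 were higher and 4 lower, against 22.8% and 23.4% of all genes. The interaction was above 0 for *Adam10* and *Marchf8*, the latter a ubiquitin ligase acting on CD86 and MHC class II, and below 0 for *Spop* and *Adam17*, with values of 0.42, 0.41, −0.36 and −0.25. LPS libraries labelled cPLA_2_ WT had 2 higher and 4 lower, against 33.4% and 29.4% of all genes, with *Adam17* higher by 1.54 on the log2 scale. *Cd5*, *Cmtm4* and *Marchf1*, the last of which removes CD86 and MHC class II from the surface of immature DCs, had log2 fold changes of −1.24, −0.70 and −0.50. In confined cPLA_2_ WT DCs set against these, 2 were higher and 4 lower, against 21.6% and 27.2%.

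Transcription factors known to act on the ligand genes largely moved with them. Of 16 factors, 14 were higher and 2 lower with confinement in cPLA_2_ WT DCs, with a median log2 fold change of 1.10 (limma, adjusted p under 0.05), against 28.2% and 28.4% of all genes. The NF-κB genes *Rel* and *Nfkb1* were higher by 2.25 and 2.10 and *Cebpb* by 2.16 on the log2 scale, and *Batf3* and *Spi1* had log2 fold changes of −0.41 and −0.19. In cPLA_2_ KO DCs 9 were higher and 5 lower, with a median of 0.17, against 22.8% and 23.4%. The interaction was −1.80 for *Nfkb2* and −1.62 for *Nfkb1* (limma, adjusted p = 1.99e-14 and 1.5e-15), and it was below 0 for 14 of the 16 factors and above 0 for 0, against 15.6% and 10.2% of all genes. LPS libraries labelled cPLA_2_ WT had 14 higher and 1 lower, against 33.4% and 29.4%, and confined cPLA_2_ WT DCs had 2 higher and 10 lower than these, against 21.6% and 27.2%. *Fos*, an early-response gene, and *Hif1a* were the pair that stood higher in confined cPLA_2_ WT DCs than in LPS libraries labelled cPLA_2_ WT, by 2.33 and 0.65, whereas *Irf8* and *Relb* had differences of −1.70 and −1.13 on the log2 scale.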

How the data were processed

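Polyadenylated RNA of the 18 libraries was sequenced by the authors from strand-specific libraries and mapped with STAR 2.7.5a to mm39 (GRCm39), and genes of the FAST DB annotation were counted with featureCounts 1.5.0, according to the Methods and the submitters' processing notes. The deposited values are a signal, which the authors made by scaling each library's gene counts with its DESeq2 size factor. Whole reads were recovered for 100% of values within a tolerance of 0.01. All 18 columns of values were used, leaving 0 unused.

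Groups and replicate numbers came from the sample labels. The protocol text mentions LPS for every sample, whereas titles and treatment entries name it for the LPS groups alone, and these were followed. log2(normalized count + 1) was compared with limma 3.58.1 in R 4.3.3 (lmFit, contrasts.fit, eBayes, trend on) over all 18 libraries, with a mean for each group, for genes that reached 10 normalized counts in 3 libraries or more. Fold changes are on this scale and understate the change of low genes. Benjamini-Hochberg adjustment ran over the 17875 genes within a comparison. On recovered reads, edgeR 4.0.16 called 10102 genes with confinement in cPLA_2_ WT, 8348 in cPLA_2_ KO and 4569 in the interaction, and DESeq2 1.42.0 called 10267, 8547 and 4913, against 10113, 8271 and 4619 by limma.

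Alternatives were TMM scaling, the same total in each library, edgeR, DESeq2, fits of the compared groups alone, the replicate number as a block, a required log2 fold change of 1, the Methods' rule (unadjusted p of 0.05 and 1.5-fold change), a low-value filter of 100 or none, pseudocounts of 0.5 or 5, the longest transcript for length, pooled LPS labels and each library left out. Using all 6 LPS libraries in place of those of a label, and leaving out the 3 that go against their labels, were chosen after seeing the data. Named from each list were the called genes with the largest absolute log2 fold change, at most 3 in each direction. Some genes of the lists are not reported here. The level of *Tnfsf9* in LPS libraries was added after its values were seen. The members and lists were chosen with earlier results of these data known. The list of DC markers holds *Ccr7*, a gene the study centres on, and shares *Batf3* and *Irf4* with the transcription factors. The fits were tested on simulated data. Plots used matplotlib 3.10.9 under Python 3.11.15.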

Additional observations from a re-analysis of the deposited data

Results flagged for a closer look

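The change with confinement differed between cPLA_2_ KO and cPLA_2_ WT DCs by a test of the difference itself for 9 ligands. The interaction on the log2 scale was −1.40 for *Cd80*, −1.37 for *Cd86*, −3.42 for *Cd40*, −2.17 for *Cd83* and −0.39 for *Icosl*. Among co-inhibitory ligands it was −1.28 for *Cd274*, −2.06 for *Cd200*, −1.19 for *Pvr* and −0.67 for *Lgals9*. The call of *Icosl* was lost with the same total in each library (−0.20, adjusted p = 0.187 by limma) and when certain single libraries were left out. The change with LPS differed between the labels for *Cd86*, by −0.33, in a comparison that holds libraries whose Y-linked genes go against their labels.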

How the results depend on the processing

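Of 1623 values of single ligands compared across the alternatives, apart from a required log2 fold change of 1 and the rule of the Methods, under which only calls were counted, 1594 kept their direction and their side of the threshold, 6 lost the call, 4 gained it and 19 changed sign, of which 1 was called at first and 2 were called under the alternative. Scaling each library to the same total moved the median of all genes on the log2 scale to −0.226 for confinement in cPLA_2_ WT, −0.0245 in cPLA_2_ KO, 0.236 in the interaction, 0.193 between confined genotypes, −0.469 and −0.444 for LPS under the labels cPLA_2_ WT and cPLA_2_ KO, and 0.264 and 0.461 for confined against LPS libraries under the labels cPLA_2_ WT and cPLA_2_ KO. The share of called genes that were higher went from 49.8% to 32.7%, 39.5% to 70.7% (interaction), 47.7% to 69.7%, 53.1% to 25.5%, 52.6% to 26.2%, 44.2% to 75% and 47.9% to 77.4% in the same order without confinement in cPLA_2_ KO, and from 53.8% to 42% between nonconfined genotypes. Under this scaling 9 ligands were higher with confinement in cPLA_2_ WT, against 20% of all genes tested, and 8 had a negative interaction, against 11%. In confined cPLA_2_ WT DCs against LPS libraries labelled cPLA_2_ WT, 2 ligands were higher and 8 lower, against 41.1% and 13.7%. *Lgals9* with confinement in cPLA_2_ WT DCs (0.068, adjusted p = 0.315 by limma) and the interaction of *Icosl* (−0.20, 0.187) lost their calls. Signs turned for *Cd83* (0.097) and *Cd80* (0.27) in confined cPLA_2_ WT DCs against LPS libraries labelled cPLA_2_ WT, *Cd40* (−0.0094) and *Cd86* (−0.019) with confinement in cPLA_2_ KO DCs and *Pvr* between nonconfined genotypes (−0.023). The cause of the other sign changes was not tested. They were *Cd40* (−0.016) and *Cd86* (−0.026) with confinement in cPLA_2_ KO DCs under TMM scaling, and *Cd80* in confined cPLA_2_ WT DCs against LPS libraries labelled cPLA_2_ WT with DESeq2 (0.011) and edgeR (0.046). With each library left out in turn, values ran from −0.0042 to 0.077 for *Cd40*, −0.0061 to 0.041 for *Cd86* and −0.29 to 0.0047 for *Cd200* with confinement in cPLA_2_ KO DCs. They ran from −0.041 to 0.33 for *Cd200*, −0.027 to 0.089 for *Cd40* and −0.029 to 0.063 for *Pvr* between nonconfined genotypes, and from −0.10 to 0.065 for *Cd80* in confined cPLA_2_ WT DCs against LPS libraries labelled cPLA_2_ WT. The count of ligands called between nonconfined genotypes, 1 at first, was 2 with a filter of 100 normalized counts (*Cd83*, adjusted p = 0.0496 by limma), 2 with DESeq2 (*Cd83*, 0.0356), 1 to 2 with a library left out (2 without cPLA_2_ KO library 2, *Cd83*, 0.0361), and 0 with a required log2 fold change of 1 or under the rule of the Methods. Confinement in cPLA_2_ KO DCs gave 0 and 1 ligands under these rules in place of 6, and the interaction of LPS and label 0 and 0 in place of 1. With the replicate number as a block, the counts of ligands called were 10, 6, 9, 1, 10, 0, 10, 10, 1, 9 and 10, as without it. Correlations of the deviations of libraries with the same number were −0.142 to 0.338 and in no comparison all above 0.1, so that the numbers were not used as pairs.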
